A study of Mus musculus with 6 samples.

Results

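The genes described here are a given list of 38 genes of peroxisomal oxidation and biogenesis, chosen by name: 27 enzymes and ABC transporters and 11 Pex genes. This list and the comparison lists used below were chosen with earlier results of these data known. Of these, 37 of the 24034 genes in the deposited table were found, 26 enzymes and transporters and all 11 Pex genes. The D-amino acid oxidase gene Dao was not analysed here.

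Peroxisomes are small oxidative organelles that are abundant in hepatocytes. They shorten very long-chain, branched and dicarboxylic fatty acids and bile acid precursors by beta-oxidation, oxidise hydroxy acids, urate and amino acids to hydrogen peroxide that catalase removes, and carry out the first steps of ether lipid synthesis. Their enzymes are made in the cytosol and are brought in by the peroxins, the products of the Pex genes, which also insert the membrane proteins and divide the organelle. In rodent liver many of the oxidation enzymes are induced through the nuclear receptor PPARalpha.

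RNA sequencing had been done on liver of C57BL/6 mice at 25 weeks of age. The mutant group (HO) had 3 libraries from mice with the genotype label lncenc13A/3A, and the wild type group (WT) had 3 libraries with the label lncenc1wt/wt. The series' design text calls the mutants knockouts of Lncenc1, a long non-coding RNA gene. The sources used here do not say what the allele changes. Expression of Lncenc1 was not analysed here, and the genotypes were taken as labelled. Neither sex nor the use of 1 animal per library is stated, and p-values reflect only the spread among these libraries, which may be technical. Genotype and any other difference between the groups cannot be told apart.

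Expression was given as FPKM, fragments per kilobase of transcript, relative to the mapped total of each library, so that levels of genes can be compared per length. The libraries summed to between 495570 and 518218 FPKM, and their relative depth, read from the spacing of low values, was about 19100000 to 24600000 read equivalents. Hepatocyte markers were high throughout, with Alb at 25339 to 29603 FPKM in HO and 31203 to 33315 FPKM in WT. The sum of 21 acute phase genes was 11660 FPKM in HO replicate 1, against 30133 and 28275 FPKM in HO replicates 2 and 3 and 8914 to 11158 FPKM in WT, so HO replicate 1 stood apart from its group on these genes. In bulk liver, fewer cells of a type and less RNA per cell cannot be told apart. A fit with limma on log2(FPKM + 0.5) over 13250 genes, with Benjamini-Hochberg adjustment at 0.05, called 151 genes, or 1.14%, of which 43 were higher and 108 lower in HO. With median-of-ratios scaling the split was 70 higher and 64 lower. The median log2 change of all genes was -0.094.

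Of the peroxisomal genes, 2 fell in HO and none rose: Acaa1b, a thiolase of beta-oxidation, and Abcd2, an ABC transporter for very long-chain acyl groups. That is 2 of 26 enzymes and transporters and 0 of 11 Pex genes, where 0.815% of all genes tested were called lower and 0.325% higher. At an unadjusted p under 0.05, 10 enzymes and transporters were lower and 2 higher, and 9 Pex genes were lower and 0 higher, where the shares of all genes were 16.5% and 5.01%. Without Hao2, which passed the filter on low values only through WT, 9 enzymes and transporters were lower. The median log2 change was -0.19 over the enzymes and transporters, with changes from -2.06 to 0.83 (-0.079 with median-of-ratios scaling, -0.11 after quantile normalization), and -0.34 over the Pex genes, with changes from -0.57 to -0.018 (-0.23 and -0.24 under the same scalings). Of the enzymes and transporters 16 had a negative and 10 a positive value, or 61.5% negative, close to the 64.6% of all genes. All 11 Pex genes had a negative value. With median-of-ratios scaling or quantile normalization 10 of them did, Pex6 being positive. The difference between the enzymes and the Pex genes was described by these medians and was not tested.

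**Figure D1:**
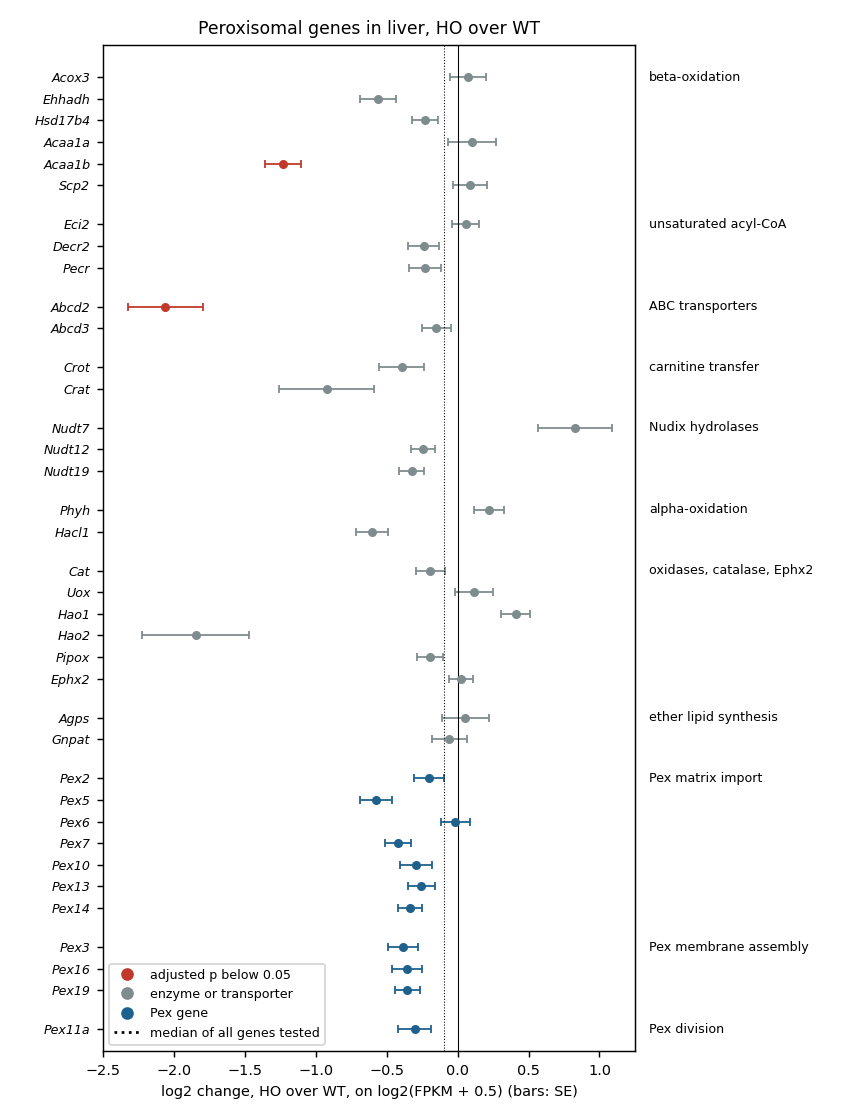
Log2 change of each gene, HO over WT, on the log2(FPKM + 0.5) scale with its SE, grouped by role; the dotted line is the median of all genes tested. Acaa1b and Abcd2, in red, passed the threshold, the other enzymes and transporters (grey) lie on both sides of 0, and the Pex genes (blue) run from -0.57 to -0.018.

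**Figure D2:**
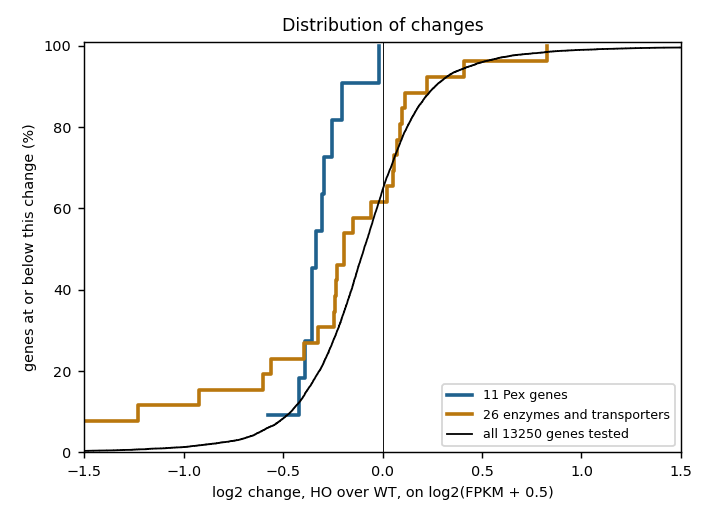
Cumulative percentage of genes at or below each log2 change (HO over WT) for the 11 Pex genes, the 26 enzymes and transporters and all 13250 genes tested, with the far ends of the scale not drawn. The Pex curve is steep around its median of -0.34, while the enzyme curve runs from beyond the left edge to 0.83 and crosses 0 near the curve of all genes.

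The beta-oxidation enzymes act in turn: an acyl-CoA oxidase, a bifunctional hydratase and dehydrogenase, and a thiolase. Acaa1b encodes a thiolase (3-ketoacyl-CoA thiolase B), known in rodents for its induction by peroxisome proliferators. It was at 465.0, 402.8 and 517.2 FPKM in HO replicates 1, 2 and 3, against 1114, 1176 and 957.9 FPKM in WT replicates 1, 2 and 3. All HO values lay below all WT values, with a wide gap between the groups. The means were 461.7 ± 57.3 FPKM in HO and 1083 ± 112.4 FPKM in WT (SD, n = 3 each). The mean was 57.4% lower in HO, and limma gave a log2 change of -1.23 with an SE of 0.13 (adjusted p = 0.0211). By level, Acaa1b was the sixth of the 37 genes in HO and the fourth in WT. The fall was of the same size without HO replicate 1 (log2 change -1.24). Its adjusted p was 0.0933 without WT replicate 1 and 0.0965 without WT replicate 2, with log2 changes of -1.21 and -1.17, and lay between 0.0117 and 0.0965 over all alternatives.

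Acaa1a, the closest relative of Acaa1b and its neighbour on chromosome 9, encodes the other thiolase of the pair. It was at 66.7, 83.9 and 76.6 FPKM in HO, against 54.5, 79.4 and 80.4 FPKM in WT, so the groups overlapped (log2 change 0.10 ± 0.17, limma adjusted p = 0.775). The fitted change of Acaa1a was 0.21 with median-of-ratios scaling and 0.19 after quantile normalization, and it ran from -0.083 when WT replicate 1 was left out to 0.19 when WT replicate 3 was. Acaa1b made up 87.4%, 82.8% and 87.1% of the summed FPKM of the pair in HO, against 95.3%, 93.7% and 92.3% in WT, with no overlap. Acaa1b lies on the minus strand at 119148023 to 119157093 and Acaa1a on the plus strand at 119339676 to 119350299 (mm10). Reads can be shared between them: 30.5% of the 50-base windows of the Acaa1b transcripts also occur in transcripts of Acaa1a, and their longest identical run is 327 bases, from base 847 to 1173 of the transcript Acaa1b-201, inside its coding part (bases 100 to 1371). A share of 11.4% of the exonic bases of Acaa1b also overlaps Dlec1 on the opposite strand. Of the Acaa1a windows, 12.4% occur in Acaa1b, and 6.57% of its exonic bases overlap Myd88 on the opposite strand. Windows shared with any other gene were 39.6% for Acaa1b and 17.1% for Acaa1a. The values of both thiolase genes are uncertain for this reason. The first 150 bases of the identical run, base 847 to 996, are printed to show what the thiolase genes have in common:

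Acaa1b and Acaa1a, shared run: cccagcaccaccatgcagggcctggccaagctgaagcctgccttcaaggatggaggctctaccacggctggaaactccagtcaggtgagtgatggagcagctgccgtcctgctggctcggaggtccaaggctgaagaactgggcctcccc

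The 250 bases before the start sites of these genes, from RefSeq (GRCm38.p6), are printed beside it because the genes differ there in CG content. Capitals mark CG dinucleotides, of which the Acaa1b stretch holds 2 and the Acaa1a stretch 10.

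Acaa1b, chr9:119157094-119157343, minus strand: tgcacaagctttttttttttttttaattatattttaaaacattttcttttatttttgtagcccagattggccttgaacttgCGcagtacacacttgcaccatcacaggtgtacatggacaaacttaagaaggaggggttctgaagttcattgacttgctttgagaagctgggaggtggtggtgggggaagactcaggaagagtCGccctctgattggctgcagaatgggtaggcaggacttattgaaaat
Acaa1a, chr9:119341044-119341293, plus strand: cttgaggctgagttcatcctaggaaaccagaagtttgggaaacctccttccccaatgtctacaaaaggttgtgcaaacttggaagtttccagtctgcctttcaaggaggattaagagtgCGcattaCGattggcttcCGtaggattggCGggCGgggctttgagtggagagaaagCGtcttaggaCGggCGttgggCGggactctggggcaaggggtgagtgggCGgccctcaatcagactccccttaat

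Upstream of the thiolases, none of the oxidation enzymes passed the threshold. Ehhadh, the L-bifunctional enzyme, was at 89.7, 94.5 and 96.6 FPKM in HO, against 137.9, 163.1 and 117.8 FPKM in WT, with no overlap between the groups (log2 change -0.56 ± 0.12, limma adjusted p = 0.0778). It passed with array weights and without WT replicate 3, the lowest WT library for it (log2 change -0.68, limma adjusted p = 0.0400, and 0.0365 to 0.230 over all alternatives). Those fits called 941 and 259 genes in all, against 151 in the fit of all libraries without weights. Hsd17b4, the D-bifunctional enzyme that also serves bile acid synthesis, was at 207.2, 198.6 and 207.8 FPKM in HO, against 254.5, 252.4 and 216.3 FPKM in WT (limma adjusted p = 0.204). Acox3, an oxidase of branched acyl-CoA, averaged 11.1 ± 1.42 FPKM in HO and 10.5 ± 0.981 FPKM in WT. Scp2, whose long product is a thiolase for branched chains and whose short product is a lipid carrier, had the highest level of the 37 genes, at 1360 ± 154.1 FPKM in HO and 1278 ± 115.5 FPKM in WT, and 29.7% of its windows also occur in the pseudogene Scp2-ps2. Acox3 and Scp2 overlapped between the groups. The 6 genes of beta-oxidation summed to 2379, 2049 and 2192 FPKM in HO, against 2782, 3092 and 2597 FPKM in WT. The mean sums were 2207 FPKM in HO and 2824 FPKM in WT. That gap is about the size of the gap of Acaa1b alone, which averaged 461.7 FPKM in HO and 1083 FPKM in WT. Of the 6 genes, 3 had a negative and 3 a positive log2 change.

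The auxiliary enzymes prepare unsaturated acyl-CoA for the same pathway, and all 3 overlapped between the groups. Decr2, a dienoyl-CoA reductase, was at 101.5, 107.7 and 129.3 FPKM in HO, against 137.5, 133.3 and 127.1 FPKM in WT (log2 change -0.24 ± 0.11, limma adjusted p = 0.255; log2 change -0.13 with median-of-ratios scaling, -0.14 after quantile normalization). Pecr, an enoyl-CoA reductase, averaged 124.6 ± 17.6 FPKM in HO and 145.5 ± 4.40 FPKM in WT. The isomerase gene Eci2 averaged 141.9 ± 11.5 FPKM in HO and 136.3 ± 8.27 FPKM in WT.

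Abcd2, the second of the genes that fell, lies on chromosome 15 from 91145871 to 91191799 on the minus strand, and fewer than 1% (0.611%) of its windows occur in other genes. It was at 1.30, 1.57 and 3.26 FPKM in HO replicates 1, 2 and 3, against 9.80, 9.97 and 8.94 FPKM in WT replicates 1, 2 and 3. The groups did not overlap, and the highest HO value was that of HO replicate 3. The means were 2.04 ± 1.07 FPKM in HO and 9.57 ± 0.548 FPKM in WT (SD, n = 3 each), and limma gave a log2 change of -2.06 with an SE of 0.27 (adjusted p = 0.0284), which understates the change of a gene this low. The HO values were worth 153.5 to 437.6 read equivalents and the WT values 1113 to 1394. The call was lost with no filter on low values (limma adjusted p = 0.0601). It was also lost when HO replicate 2 was left out (0.0799), and when WT replicate 1 (0.135) or WT replicate 2 (0.121) was, with log2 changes of -1.95, -2.04 and -2.03. Over all alternatives the adjusted p was 0.0118 to 0.135. Abcd2 is also known as a transporter of adipose tissue. Of the adipocyte markers, Adipoq and Plin1 were listed at 0 in all 6 libraries. The 4 in the table summed to 9.21 to 20.47 FPKM in HO and 52.4 to 64.7 FPKM in WT, most of it Cfd in WT. The gap in the sum lay in Cfd, at 5.86 ± 5.74 FPKM in HO and 49.9 ± 6.13 FPKM in WT. Fabp4 overlapped between the groups, at 10.2 ± 3.40 FPKM in HO and 9.48 ± 1.81 FPKM in WT. Abcd3, the main peroxisomal ABC transporter of liver and known for carrying branched and dicarboxylic acyl-CoA, was at 173.2, 150.01 and 180.9 FPKM in HO, against 171.3, 198.7 and 188.4 FPKM in WT (log2 change -0.15 ± 0.10, limma adjusted p = 0.446). The fitted change of Abcd3 was -0.070 without HO replicate 2, -0.036 with median-of-ratios scaling and -0.076 after quantile normalization. Abcd2 therefore held 0.742% to 1.77% of the summed FPKM of both transporters in HO and 4.53% to 5.41% in WT.

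**Figure D3:**
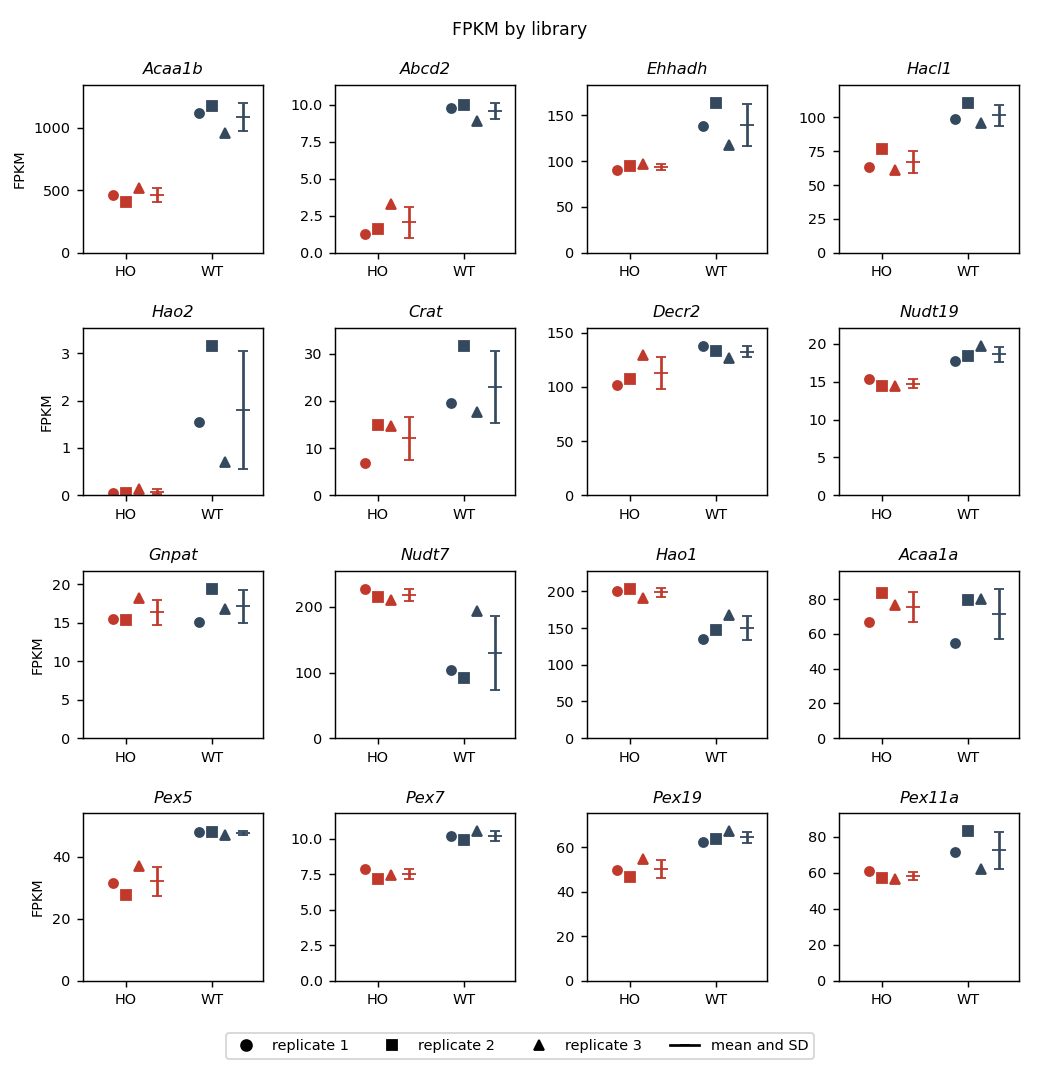
FPKM in each library for 16 genes, with HO left of WT, a marker shape for each replicate number and the mean with its SD beside the points. Acaa1b, Abcd2, Ehhadh, Hacl1, Hao2, Crat, Nudt19, Pex5, Pex7, Pex19 and Pex11a have all HO values below all WT values, Nudt7 and Hao1 have all HO values above, and Decr2, Gnpat and Acaa1a overlap.

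Shortened acyl groups leave the peroxisome as carnitine esters. Crat, which makes the esters of short chains, was at 6.88, 14.9 and 14.6 FPKM in HO, against 19.6, 31.7 and 17.6 FPKM in WT, without overlap but with HO replicate 1 low and WT replicate 2 high (log2 change -0.92 ± 0.33, limma adjusted p = 0.176). Without HO replicate 1 the log2 change of Crat was -0.57. Crot, for medium chains, was at 208.3, 244.5 and 180.4 FPKM in HO, against 306.4, 300.6 and 226.2 FPKM in WT, where WT replicate 3 lay within the HO range (log2 change -0.39 ± 0.16, limma adjusted p = 0.213).

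The Nudix hydrolases, which cleave coenzyme A or NADH, had fitted changes of both signs, none past the threshold. Nudt7, a coenzyme A hydrolase, was at 228.1, 215.0 and 210.2 FPKM in HO, against 103.1, 92.1 and 194.0 FPKM in WT. The HO values lay close together, while WT replicate 3 lay near them and far from the other WT libraries (log2 change 0.83 ± 0.26, limma adjusted p = 0.139). Without WT replicate 3 the log2 change of Nudt7 was 1.15 (limma adjusted p = 0.00893, and 0.00893 to 0.344 over all alternatives). That fit called 259 genes in all. Nudt19, another coenzyme A hydrolase, was at 15.4, 14.4 and 14.5 FPKM in HO, against 17.7, 18.4 and 19.7 FPKM in WT (log2 change -0.32 ± 0.09, limma adjusted p = 0.105; log2 change -0.21 with median-of-ratios scaling), and 33.3% of its windows also occur in the opposite-strand gene B230322F03Rik. Nudt12, which acts on NADH, averaged 24.2 ± 0.862 FPKM in HO and 28.7 ± 1.27 FPKM in WT (limma adjusted p = 0.155). Neither Nudt12 nor Nudt19 overlapped between the groups.

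Alpha-oxidation removes the first carbon of branched phytanic acid by a hydroxylase, Phyh, and then a lyase, Hacl1. Hacl1 was at 63.7, 76.4 and 60.9 FPKM in HO, against 98.9, 110.5 and 95.6 FPKM in WT, with no overlap (log2 change -0.60 ± 0.11, limma adjusted p = 0.0581). It missed the threshold in the fit of all libraries. It passed with array weights, which called 941 genes in all (limma adjusted p = 0.0307, and 0.0307 to 0.204 over all alternatives). Of its windows, 27.4% also occur in the same-strand gene Gm49387. Phyh, the gene of the preceding step, was at 1443, 1346 and 1171 FPKM in HO, against 1154, 1152 and 1073 FPKM in WT, also with no overlap but with the HO values above (log2 change 0.22 ± 0.11, limma adjusted p = 0.273; log2 change 0.34 with median-of-ratios scaling, 0.083 after quantile normalization). The enzymes of this short pathway thus had fitted changes of opposite sign, with neither past the threshold.

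Among the oxidases, Hao2, an oxidase of long-chain hydroxy acids, was at 0.0490, 0.0593 and 0.130 FPKM in HO, against 1.55, 3.15 and 0.699 FPKM in WT. These HO values were worth about 2.0, 2.99 and 6.0 read equivalents and the WT values 60.6, 152.1 and 31.4, so the groups were well apart although the WT values differed widely among themselves. Hao2 entered the test only through its WT values, so a fitted difference was built into its entry. Its log2 change of -1.85 ± 0.38 is given as a description, and was -3.21 with a pseudocount of 0.1. Its relative Hao1, the glycolate oxidase of liver, was at 200.3, 203.8 and 191.4 FPKM in HO, against 134.8, 146.9 and 168.1 FPKM in WT, with all HO values above all WT values (log2 change 0.41 ± 0.10, limma adjusted p = 0.0903). Hao1 passed with array weights, which called 941 genes in all (limma adjusted p = 0.0433, and 0.0433 to 0.261 over all alternatives). Pipox, which oxidises pipecolic acid and sarcosine, averaged 106.8 ± 6.61 FPKM in HO and 122.2 ± 9.13 FPKM in WT without overlap (limma adjusted p = 0.278). Uox, the urate oxidase, averaged 646.1 ± 64.7 FPKM in HO and 599.2 ± 90.9 FPKM in WT. Cat, the catalase that breaks down the hydrogen peroxide made by these oxidases, averaged 1023 ± 89.5 FPKM in HO and 1167 ± 80.9 FPKM in WT (limma adjusted p = 0.332). Ephx2, an epoxide hydrolase of cytosol and peroxisome, averaged 488.1 ± 18.3 FPKM in HO and 480.4 ± 28.4 FPKM in WT. Uox, Cat and Ephx2 overlapped between the groups.

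The ether lipid enzymes were among the less abundant and overlapped between the groups. Gnpat, which adds the first acyl chain, was at 15.5, 15.4 and 18.3 FPKM in HO, against 15.1, 19.4 and 16.8 FPKM in WT (log2 change -0.057 ± 0.12, limma adjusted p = 0.828). Agps, which exchanges that chain for the ether-linked alcohol, averaged 2.30 ± 0.555 FPKM in HO and 2.17 ± 0.185 FPKM in WT.

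None of the 11 Pex genes passed the threshold (limma, smallest adjusted p = 0.0671), yet their summed FPKM was apart in the groups. It was 307.7, 292.6 and 312.8 FPKM in HO, against 384.0, 394.5 and 368.2 FPKM in WT. In 9 of the 11 all HO values lay below all WT values, and in the other two, Pex2 and Pex6, the groups overlapped. Over all genes tested, 27.9% did not overlap: 21.4% had all HO values below all WT values and 6.42% had them all above. Among the enzymes and transporters 10 of 26 lay below, 9 without Hao2, and 3 of 26 above. The 9 separated Pex genes had mean levels that were lower in HO by 16.8% to 32.7%.

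Pex5 and Pex7 are the receptors that bring matrix enzymes to the organelle, Pex7 for the cargo that includes the Acaa1 thiolases, Phyh and Agps. Pex5 was at 31.6, 27.6 and 36.9 FPKM in HO, against 48.0, 47.9 and 46.9 FPKM in WT (log2 change -0.57 ± 0.11, limma adjusted p = 0.0671). The WT values of Pex5 were almost equal, and those of HO spread more widely. Pex7 was at 7.87, 7.18 and 7.45 FPKM in HO, against 10.2, 9.90 and 10.5 FPKM in WT (log2 change -0.42 ± 0.09, limma adjusted p = 0.0765), with little spread in either group. At the docking complex, Pex14 averaged 24.2 ± 1.51 FPKM in HO and 30.7 ± 1.17 FPKM in WT (limma adjusted p = 0.0959), with 25.2% of its windows also in the opposite-strand gene Gm17029. Its partner Pex13 averaged 12.6 ± 0.543 FPKM in HO and 15.2 ± 1.02 FPKM in WT. Array weights called 941 genes in all, 692 of them lower. With them Pex5, Pex7 and Pex14 passed as lower (limma adjusted p = 0.0424, 0.0379 and 0.0454). Over all alternatives their adjusted p ran from 0.0424 to 0.215 for Pex5, 0.0379 to 0.230 for Pex7 and 0.0454 to 0.273 for Pex14.

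Receptor recycling uses the ubiquitin ligases Pex2 and Pex10 and the ATPase Pex6. Pex10 averaged 3.29 ± 0.298 FPKM in HO and 4.14 ± 0.161 FPKM in WT. Pex2 averaged 21.3 ± 1.98 FPKM in HO and 24.6 ± 1.77 FPKM in WT, and Pex6 34.6 ± 1.33 FPKM in HO and 35.2 ± 3.94 FPKM in WT. The level of Pex6 thus differed by less than the spread within either group.

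Pex3, Pex16 and Pex19 place proteins in the peroxisomal membrane, and all 3 had HO values below the WT values. Pex19, the cytosolic carrier, was at 49.7, 46.8 and 54.8 FPKM in HO, against 62.3, 63.9 and 67.2 FPKM in WT (log2 change -0.35 ± 0.09, limma adjusted p = 0.0932). Pex3, its docking factor, averaged 10.999 ± 0.717 FPKM in HO and 14.6 ± 1.32 FPKM in WT, and Pex16 averaged 49.2 ± 3.03 FPKM in HO and 63.3 ± 6.46 FPKM in WT (limma adjusted p = 0.105 and 0.118). Pex11a, which shapes and divides peroxisomes and is itself a known PPARalpha target, was the most abundant Pex gene. It was at 60.9, 56.9 and 56.5 FPKM in HO, against 71.7, 82.9 and 62.2 FPKM in WT, without overlap (log2 change -0.30 ± 0.12, limma adjusted p = 0.195; log2 change -0.19 with median-of-ratios scaling and -0.20 without WT replicate 2).

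**Figure D4:**
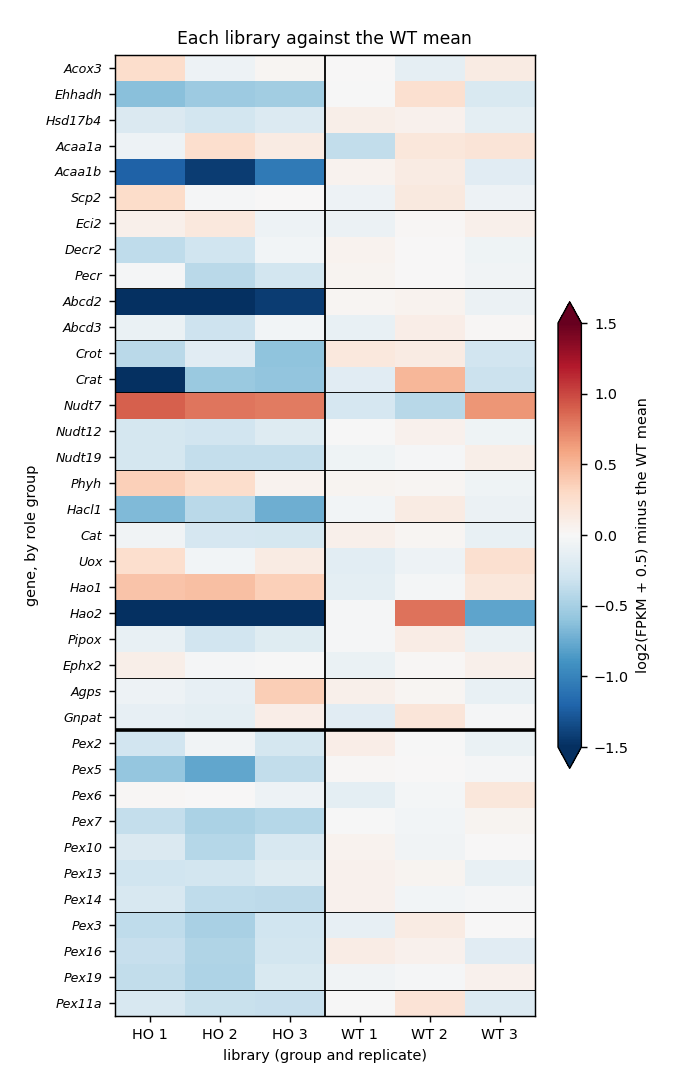
Each library (columns, HO left of WT) and gene (rows, by role group, Pex genes under the thick line) as log2(FPKM + 0.5) minus the WT mean, with the colours saturating at the ends of the scale. The Pex rows are blue across the HO columns except Pex6, and Pex2 in HO replicate 2, which are near white, while the enzyme rows mix blue (Acaa1b, Abcd2, Hao2) with red (Nudt7, Hao1).

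The lower Pex values were seen in each HO library. The median over the 11 genes of log2(FPKM + 0.5) minus the WT mean was -0.30, -0.43 and -0.27 in HO replicates 1, 2 and 3, and between -0.021 and 0.012 in the WT libraries. For the 26 enzymes and transporters it was -0.10, -0.27 and -0.13 in HO and between -0.065 and 0.060 in WT. For all genes tested it was -0.097, -0.10 and -0.078 in HO. Within HO, replicate 2 was the lowest library for 6 of 11 Pex genes and for 13 of 26 enzymes and transporters.

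The enzymes had a higher median level than the Pex genes in both groups, although the ranges overlapped. The median of the mean levels was 118.7 FPKM in HO and 134.5 FPKM in WT over the enzymes and transporters, and 24.2 FPKM in HO and 30.7 FPKM in WT over the Pex genes. Enzyme levels ran from 0.0794 FPKM for Hao2 to 1360 FPKM for Scp2 in HO, and from 1.80 to 1278 FPKM for the same genes in WT. The Pex genes ran from 3.29 to 58.1 FPKM in HO and from 4.14 to 72.3 FPKM in WT, with Pex10 the lowest and Pex11a the highest. Scp2 and Phyh led in HO and Scp2 and Cat in WT. The summed FPKM of the 26 enzymes and transporters was 7607, 6858 and 6846 in HO, against 7593, 8001 and 7444 in WT, and overlapped.

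**Figure D5:**
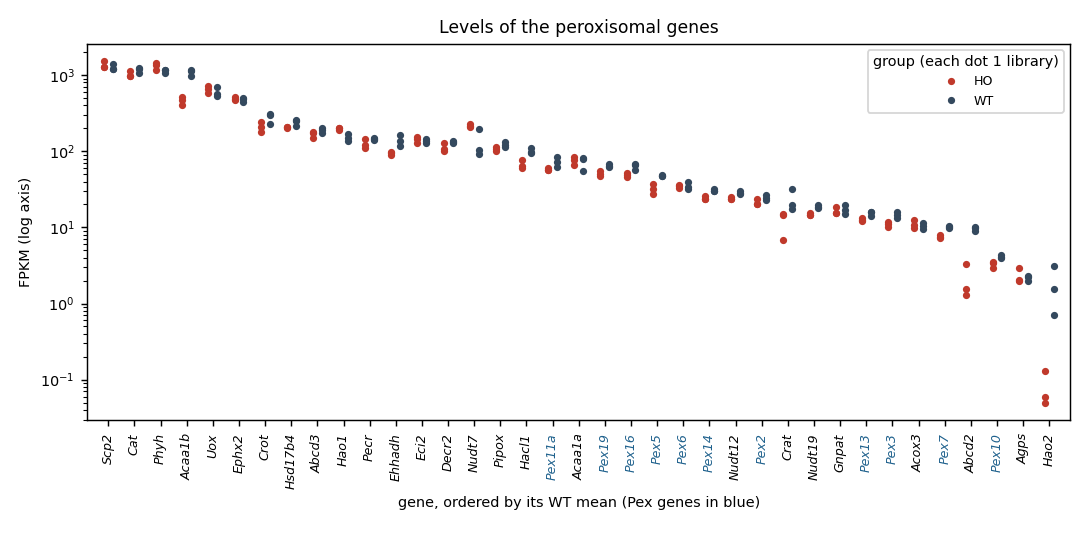
FPKM of each gene in each library on a log axis, ordered by the WT mean, with HO dots left of WT dots and Pex gene names in blue. The Pex genes sit in the middle and lower part of the range, Acaa1b (461.7 FPKM in HO, 1083 FPKM in WT) and Abcd2 (2.04 FPKM in HO, 9.57 FPKM in WT) show the gap between the groups, and Hao2 is the lowest gene.

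The promoters of the Pex genes had a higher ratio of observed to expected CG dinucleotides than those of the enzymes. The choice of genes did not use this feature, and it is given as a description. The number of CG itself was similar, with a median of 13.5 in the Pex promoters and 12 in the enzyme promoters. Some genes, Pex5 and Pex16 among them, entered with more than 1 promoter. RefSeq start sites were matched for 21 of the 26 enzymes and transporters (23 promoters) and 9 of the 11 Pex genes (12 promoters). Over the 250 bases before the start, the observed number of CG divided by the number that the C and G content would give had a median of 0.788 in the Pex promoters, 0.582 in the enzyme promoters and 0.374 in all 32851 promoters. A ratio of 0.6 or more was found in 83.3% of the Pex promoters, 43.5% of the enzyme promoters and 34.0% of all promoters. The Pex7 and Hao2 promoters are printed as the highest ratio of the Pex genes (1.10, with 11 CG) and among the lowest of the enzymes (0.205, with 1 CG), again with CG in capitals:

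Pex7, chr10:19907675-19907924, minus strand: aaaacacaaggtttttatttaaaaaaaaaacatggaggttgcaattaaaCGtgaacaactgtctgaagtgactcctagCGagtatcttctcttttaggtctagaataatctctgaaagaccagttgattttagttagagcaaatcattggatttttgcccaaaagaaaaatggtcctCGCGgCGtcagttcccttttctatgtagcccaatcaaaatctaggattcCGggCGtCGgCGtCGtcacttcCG
Hao2, chr3:98893231-98893480, minus strand: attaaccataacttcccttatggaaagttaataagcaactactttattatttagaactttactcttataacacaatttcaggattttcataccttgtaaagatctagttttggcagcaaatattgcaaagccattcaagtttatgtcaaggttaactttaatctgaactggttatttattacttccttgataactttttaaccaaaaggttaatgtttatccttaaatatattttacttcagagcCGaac

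The recognition element of PPARalpha and its partner RXR, AGGTCANAGGTCA, was searched for on both strands from 250 bases before to 50 bases after each start, allowing 2 mismatches. Of the 23 enzyme promoters 1 held a match, and of the 12 Pex promoters 0 did, where 3.86% of all promoters held one. The match lay 204 bases before the start of Cat and reads AGGTCAGAGAACA. Acaa1b, Ehhadh and Pex11a had no match in this window. Abcd2, Crat, Ephx2, Nudt12, Hsd17b4, Pex2 and Pex19 had no matched start site and were not searched.

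Other peroxisomal genes, taken from lists of such genes outside the 38, were mixed. Of 26 other enzymes tested, 2 fell and 0 rose, where 0.815% of all genes were called lower and 0.325% higher. Their median log2 change was -0.12, near the -0.094 of all genes. The genes that fell were the thioesterases Acot3, at 0.490 ± 0.275 FPKM in HO and 6.34 ± 1.34 FPKM in WT, and Acot4, at 5.79 ± 1.77 FPKM in HO and 19.98 ± 0.785 FPKM in WT (limma adjusted p = 0.0109 and 0.0240). Acot3 averaged below the filter of 0.5 FPKM in HO and entered the test only through its WT values. None of 11 other membrane proteins passed (median -0.016), the smallest p being that of Tmem135 at 22.9 ± 3.21 FPKM in HO and 29.5 ± 1.01 FPKM in WT (limma adjusted p = 0.142). The other biogenesis and division genes did not show the common sign of the 11: of 8 tested none passed, 4 were negative and 4 positive, and the median was 0.057.

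Marker sums of other cells differed between the groups for some types. The 6 stellate cell markers summed to 57.1 to 72.1 FPKM in HO and 84.4 to 107.0 FPKM in WT, and the 6 erythroid markers to 254.7 to 429.7 FPKM in HO and 484.5 to 505.7 FPKM in WT. The 8 Kupffer cell markers summed to 62.3 to 81.5 FPKM in HO and 75.5 to 133.6 FPKM in WT, and the 8 hepatocyte markers to 43622 to 47857 FPKM in HO and 49193 to 51750 FPKM in WT. The 6 neutrophil markers summed to 2.60 to 7.76 FPKM in HO and 1.27 to 4.41 FPKM in WT. Endothelial (38.7 to 43.9 FPKM in HO, 41.5 to 50.6 FPKM in WT), bile duct (20.1 to 22.99 FPKM in HO, 24.2 to 27.6 FPKM in WT) and lymphocyte markers (0.621 to 1.37 FPKM in HO, 1.22 to 2.19 FPKM in WT) were 6 each. The 2 kidney markers in the table reached at most 0.214 FPKM in any library. These sums lean on their most abundant genes. The hepatocyte sum was mostly Alb, at a mean of 27996 FPKM in HO and 32400 FPKM in WT. Likewise Dcn made up most of the stellate sum, Spp1 of the bile duct sum and globins of the erythroid sum. Of the markers tested, 5 of 8 hepatocyte, 5 of 6 stellate, 3 of 4 bile duct and 3 of 4 erythroid ones had a negative log2 change. For Kupffer cells all 8 did. Of all genes tested, 64.6% had a negative log2 change. Among the markers tested the hepatocyte gene Cps1 rose and none fell. The part of cell composition and of the acute phase state in the results for the peroxisomal genes was not tested.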

How the data were processed

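Liver RNA was extracted with Trizol and made into directional libraries, per the labels' protocols. The authors deposited FPKM for each gene in each library. Build mm10 and the tools StringTie, HISAT2, DESeq2 and HTSeq are named, per the submitters' processing notes, without version or role. Use of strand in the counting is not given. Low values were whole multiples of a read in 28.1% to 29.8% of cases (tolerance 0.02), too few to recover counts, so read equivalents are approximate and no count model was fitted. All genes averaging at least 0.5 FPKM across the libraries (13250 of 24034, among them the 37 members found) were fitted as log2(FPKM + 0.5) with limma 3.58.1 in R 4.3.3, 2 groups, no block, eBayes with a trend, two-sided, adjusted over all genes tested. The fit was tested on simulated data. Alternatives were pseudocounts of 1 and 0.1, no filter, a mean of 1 FPKM or more, median-of-ratios scaling, quantile normalization, array weights, a replicate block and leaving out each library. Array weights used statmod 1.5.0. Positions and exons came from GENCODE mouse release 21, which held all gene identifiers. Tables and figures used Python 3.11.15, numpy 2.4.6, pandas 2.3.3 and matplotlib 3.10.9.

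The members and lists were chosen with earlier results of these data known. Genes given in full are those past the threshold and the member with the smallest p of each of 11 role groups. Acaa1a, Crot, Ehhadh, Hao1, Hsd17b4, Nudt7, Abcd3, Pex7 and Phyh were added after their values were seen, as were Alb, Angptl4, Cfd, Cps1, Cyp4a12a and Ppara. From the other lists the genes named are those past the threshold, or the one with the smallest p; some results are not reported here. FPKM is relative to all other genes of a library. No pair of libraries held identical values.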

Additional observations from a re-analysis of the deposited data

How the results depend on the processing

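Under 14 alternatives, 30 of the 37 genes kept the sign of their log2 change in each. The count of changed genes was 151, and 100 with a pseudocount of 0.1, 40 with no filter, 941 with array weights and 6 to 259 when a library was left out. The count of enzymes and transporters that fell was 2, and 1 with no filter, 5 with array weights and 0 to 4 when a library was left out (4 without WT replicate 3, 1 without HO replicate 2, 0 without WT replicate 1 or WT replicate 2), with Hao2, which entered through its WT values alone, among the 5 and the 4. The count of changed Pex genes was 0, and 3 with array weights. The median log2 change of the enzymes and transporters was -0.079 with median-of-ratios scaling, and that of the Pex genes was -0.23 under the same scaling and -0.24 under quantile normalization; these put the median of all genes at 0.0062 and -0.0020. Leaving out a library gave -0.25 to -0.14 and -0.35 to -0.30. Same-numbered libraries did not deviate together (correlations 0.066, -0.028 and 0.015 for replicates 1, 2 and 3), and with the replicate block, 25 genes were changed, 0 of them among the enzymes and transporters. The 7 genes that changed sign were near 0 and uncalled in every fit: with median-of-ratios scaling Gnpat was 0.053 and Pex6 0.094; with quantile normalization Scp2 was -0.087, Ephx2 -0.028, Gnpat 0.022 and Pex6 0.071; and when a library was left out Acox3 ran from -0.023 to 0.15, Acaa1a from -0.083 to 0.19, Scp2 from -0.0041 to 0.16, Ephx2 from -0.024 to 0.060, Agps from -0.10 to 0.14, Gnpat from -0.14 to 0.036 and Pex6 from -0.089 to 0.067. The causes were not tested. Hao2 was not tested at a mean of 1 FPKM or more, nor without WT replicate 2. Depth limits the lowest genes: Hao2 rested on about 2.0 to 6.0 read equivalents per HO library.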

Other observations

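PPARalpha targets outside the peroxisome had values on the same side as Acaa1b in most cases. Of 30 tested, 2 fell, 0 rose and 24 were negative, where 0.815% of all genes were called lower and 64.6% were negative. The median log2 change of the 30 was -0.44, against -0.094 for all genes. The 6 positive genes included Cyp4a12a (log2 change 1.08) and Angptl4 (0.34), each with all HO values above all WT values. The genes that fell were the fatty acid transporter Cd36, at 17.6, 21.2 and 19.6 FPKM in HO, against 51.7, 46.0 and 48.8 FPKM in WT, and the mitochondrial thioesterase Acot2, at 2.55 ± 0.110 FPKM in HO and 5.94 ± 1.21 FPKM in WT (limma adjusted p = 0.0109 and 0.0339). The receptor gene Ppara itself was at 41.4, 44.995 and 50.8 FPKM in HO, against 35.9, 36.1 and 47.8 FPKM in WT, with overlap (log2 change 0.20 ± 0.14, limma adjusted p = 0.442). Of 12 receptors and cofactors none passed, and the smallest p was that of Pparg, at 3.51 ± 1.05 FPKM in HO and 7.10 ± 1.53 FPKM in WT (limma adjusted p = 0.0893).

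The mitochondrial beta-oxidation genes had a median log2 change of -0.20, with 12 of 14 negative and none past the threshold. Of all genes tested 64.6% were negative, with a median of -0.094. The smallest p was that of Hadh, at 156.4 ± 13.3 FPKM in HO and 236.8 ± 27.8 FPKM in WT (limma adjusted p = 0.0635). Of 21 acute phase genes 2 rose, Socs3 and Saa4, and none fell, where 0.325% of all genes were called higher. All 21 had a positive log2 change, with a median of 1.08, and 16 had an unadjusted p under 0.05, where 5.01% of all genes were higher at that p. In 12 of the 21 all HO values lay above all WT values, where 6.42% of all genes did. The rise was uneven within HO. The sum of the 21 was 11660 FPKM in HO replicate 1, against 30133 and 28275 FPKM in HO replicates 2 and 3 and 8914 to 11158 FPKM in WT. Socs3 went the other way and was highest in HO replicate 1, at 24.3 FPKM.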
